A study of Homo sapiens with 24 samples.

Results

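DNA replication machinery genes were chosen by a rule on gene symbols, and 28 of the 14884 genes that carry a symbol on the array fell under the rule. The names covered the MCM proteins, the GINS subunits, CDC6, CDC7, CDC45, CDT1, DBF4 and DBF4B, the clamp PCNA, the loader subunit DSCC1, the fork proteins TIMELESS and WDHD1, and the nucleotide enzymes RRM1, RRM2 and TYMS. Symbols of the origin recognition complex, replication factor C, the replicative polymerases and primase, RPA, DNA ligase I, geminin and chromatin assembly factor 1 were also in the rule and were not analysed here. Each gene was represented by the probeset with the highest mean signal, which mattered only for GINS4, the gene with 2 probesets. Of the 28 genes, 27 passed the filter on low signal, a mean log2 signal of at least 6.54. MCM3AP-AS1, an antisense RNA that overlaps MCM3AP, averaged 6.44 and was not tested. A few names fit the family better than the function. MCM8 and MCM9 form a helicase of recombinational repair, and MCM3AP encodes a nuclear protein of mRNA export that binds MCM3. Here these 3 were counted under licensing because of their symbols.

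A eukaryotic origin is used in a pair of separate steps. In G1, CDC6 and CDT1 load the MCM2-7 ring onto DNA in an inactive form, which is called licensing. In S phase the kinase made of CDC7 and its activator DBF4, together with cyclin-dependent kinases, lets CDC45 and the GINS complex join the ring to form the active CMG helicase. PCNA then clamps the polymerases to DNA, and ribonucleotide reductase (RRM1 and RRM2) and thymidylate synthase (TYMS) supply deoxynucleotides. Many of these genes are transcribed at the G1/S transition under E2F transcription factors.

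The cells were OVCAR-3, an established line of platinum-resistant high-grade serous ovarian cancer, and RNA was taken from whole lysates (total RNA) and from polysomes with at least 4 ribosomes per mRNA (polysome RNA). Cells were given the combination (INK128 at 0.25 µM with carboplatin at 1 µM), either drug on its own at the same dose, or DMSO. INK128 is an inhibitor of the mTOR kinase in both of its complexes, mTORC1 and mTORC2, and carboplatin is a platinum drug that crosslinks DNA. In the combination INK128 was added 19 h before carboplatin, carboplatin was present for 5 h with or without INK128, and all cells were collected at 24 h. On the 20 arrays used here, polysome RNA was measured on 3 combination, 3 INK128, 4 carboplatin and 3 DMSO arrays, and total RNA on 2 INK128, 3 carboplatin and 2 DMSO arrays. The values are log2 signals, and 1 log2 unit is a doubling of signal. The arrays were quantile-normalized, so each change or difference between fractions is relative to other genes. The methods also describe a separate normalization of total and polysome RNA, and whether the deposited values include that step was not tested. A shift shared by all mRNAs cannot be read from them. A gene was called lower or higher at an adjusted p under 0.05 in limma over the 7442 genes tested. The methods speak of 2 full sets of independent biological replicates, fewer than the arrays of a polysome group, and the labels do not say which arrays share a set. The p-values thus measure the spread between these arrays, which may be technical.

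Another 4 arrays were left out because label and content were in conflict. The arrays labelled carboplatin polysome 1, carboplatin total 1, combination total 1 and combination total 2 matched a column of another condition in the study's datasets, with 100% of the shared probesets equal within 0.001 and at most 0.949% for any other array. No total RNA of the combination was therefore used. The check reached only arrays with a column in those datasets. Among the arrays kept, the INK128 arrays, DMSO polysome 2, combination polysome 2 and an array labelled carboplatin polysome 2 had no such column. Their labels could not be checked in this way, and the other arrays kept matched a column of their own condition. Array medians over all probesets ran between 4.97 and 5.13. Over the genes tested, combination polysome 3, carboplatin total 2 and INK128 total 2 had the lowest medians (8.19, 8.23 and 8.24), and over the replication genes the medians of INK128 total 2 and INK128 total 1 were 8.34 and 9.10. Of 12 epithelial markers 10 had a symbol and all 10 passed the signal filter, with PAX8 at 12.21, while 0 of 3 fibroblast, 0 of 2 leukocyte and 0 of 2 endothelial markers passed. In bulk RNA of this kind, fewer cells in S phase and less mRNA per cell cannot be told apart.

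The promoters of 7 replication genes are shown because these genes include 5 that were lower on polysomes with INK128 (DBF4, TYMS, GINS2, GINS1, CDC6) and a pair whose polysome signal did not pass the test (MCM2 and MCM3), so that the E2F-type letters of both kinds can be read side by side. The sequences are RefSeq's on GRCh38.p14, with 250 bases before the annotated start and the 30 bases transcribed after it, which lie at the 5′ end of the mRNA. Each is printed 5′ to 3′ along the gene's own strand: DBF4 from chr7:87876243-87876522 (plus strand), TYMS from chr18:657403-657682 (plus), GINS2 from chr16:85688925-85689204 (minus), GINS1 from chr20:25407423-25407702 (plus), CDC6 from chr17:40287629-40287908 (plus), MCM2 from chr3:127598161-127598440 (plus) and MCM3 from chr6:52284713-52284992 (minus). Capitals mark the 4 E2F-type words that were searched, TTTGGCGC, TTTCCCGC, TTTCGCGC and TTTGCCGC, on either strand, so that GCGGGAAA is TTTCCCGC read from the other strand.
DBF4: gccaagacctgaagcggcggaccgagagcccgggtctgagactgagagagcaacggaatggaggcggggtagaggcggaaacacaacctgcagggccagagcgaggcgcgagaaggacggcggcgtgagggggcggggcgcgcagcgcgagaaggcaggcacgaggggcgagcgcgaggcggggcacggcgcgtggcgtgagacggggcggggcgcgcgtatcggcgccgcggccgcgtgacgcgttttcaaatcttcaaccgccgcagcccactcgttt
TYMS: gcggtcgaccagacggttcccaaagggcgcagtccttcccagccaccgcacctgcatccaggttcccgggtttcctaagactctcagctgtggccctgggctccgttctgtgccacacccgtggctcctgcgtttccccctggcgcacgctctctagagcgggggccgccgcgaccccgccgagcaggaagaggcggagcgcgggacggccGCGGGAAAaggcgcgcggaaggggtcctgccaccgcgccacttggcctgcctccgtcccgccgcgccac
GINS2: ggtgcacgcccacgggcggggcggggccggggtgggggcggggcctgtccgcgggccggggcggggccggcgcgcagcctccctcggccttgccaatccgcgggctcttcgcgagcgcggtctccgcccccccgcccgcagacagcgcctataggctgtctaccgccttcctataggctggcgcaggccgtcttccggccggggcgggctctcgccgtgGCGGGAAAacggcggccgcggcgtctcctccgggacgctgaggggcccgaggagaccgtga
GINS1: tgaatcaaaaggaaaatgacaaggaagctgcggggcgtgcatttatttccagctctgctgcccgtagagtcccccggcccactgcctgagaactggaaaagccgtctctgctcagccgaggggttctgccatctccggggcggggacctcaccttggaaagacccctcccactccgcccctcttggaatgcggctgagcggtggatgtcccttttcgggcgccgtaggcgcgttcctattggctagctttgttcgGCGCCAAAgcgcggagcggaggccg
CDC6: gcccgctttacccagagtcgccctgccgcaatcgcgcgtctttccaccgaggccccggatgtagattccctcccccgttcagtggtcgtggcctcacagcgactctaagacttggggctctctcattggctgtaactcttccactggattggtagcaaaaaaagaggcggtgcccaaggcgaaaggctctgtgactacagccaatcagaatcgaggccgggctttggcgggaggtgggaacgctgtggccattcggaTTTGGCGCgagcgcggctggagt
MCM2: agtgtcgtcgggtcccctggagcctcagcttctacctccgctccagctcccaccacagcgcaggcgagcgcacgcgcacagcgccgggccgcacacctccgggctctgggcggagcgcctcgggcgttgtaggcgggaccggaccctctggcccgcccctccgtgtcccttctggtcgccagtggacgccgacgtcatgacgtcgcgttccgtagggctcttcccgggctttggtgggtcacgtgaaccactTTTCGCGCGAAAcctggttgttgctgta
MCM3: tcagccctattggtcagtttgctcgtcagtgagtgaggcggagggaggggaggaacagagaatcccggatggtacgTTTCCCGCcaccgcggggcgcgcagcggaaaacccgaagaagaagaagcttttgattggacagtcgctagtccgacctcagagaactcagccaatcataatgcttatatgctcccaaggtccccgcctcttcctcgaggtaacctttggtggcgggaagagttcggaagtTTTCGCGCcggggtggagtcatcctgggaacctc

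DBF4, with the steepest fall on polysomes, had no match in this window, and both MCM2 and MCM3 had 2. In MCM2 the pair of matches lies on opposite strands and overlaps, starting 3 and 7 bases into the transcript. The match of GINS1 starts at base 6 of the transcript and that of CDC6 at base 8, and those of TYMS and GINS2 start at positions -39 and -31 from the start site. Over all replication genes, 24 were found in the promoter table and 13 of them (54.2%) had a match in at least 1 promoter of 300 bases, against 3.99% of all 27305 genes in the table. A match was found in 9 of the 15 genes called lower in at least 1 of the INK128 comparisons below and in 4 of the 8 tested genes called lower in neither. The letters were present in genes with and without a call, and a link between the letters and the change was not tested. TOP mRNAs, which start with a C and a run of pyrimidines and are the best known class of mTOR-dependent messages, were looked for in the same table. Of the 24 genes with a promoter 3, CDT1, MCM2 and RRM1, had a C followed by 4 pyrimidines at the annotated start, as did 5.14% of all genes and 43 of 63 ribosomal protein genes (68.3%), and none of these 3 was called in either comparison.

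Many replication genes were lower on polysomes with INK128, both with and without carboplatin. In the combination against carboplatin, 15 of 27 were lower and 0 higher, where 12.1% of all tested genes were lower and 5.67% higher. The median log2 change was -0.57 for the replication genes and -0.09 for all tested genes. With INK128 against DMSO, 12 of 27 were lower and 0 higher, where 3.6% of all tested genes were lower and 4.62% higher, with medians of -0.53 and -0.02. These comparisons share no arrays, but they come from 1 fit that pools the spread of all 13 polysome arrays, so their calls are not independent. Both called 10 genes lower, CDC6, CDC7, DBF4, DBF4B, DSCC1, GINS1, GINS2, GINS3, GINS4 and TYMS, while 3.06% of all tested genes were lower in both. MCM6, MCM8, MCM10, RRM2 and TIMELESS were called in the combination against carboplatin alone, and CDC45 and PCNA in INK128 against DMSO alone. The difference between the comparisons is the interaction of the drugs, and none of the 27 genes passed in it (limma, 0 of all genes, and 1.36% of all genes but none of the 27 at an unadjusted p under 0.05), with changes between -0.30 for MCM10 and 0.20 for PCNA. When the combination was set against DMSO, 15 of 27 were lower, where 8.52% of all tested genes were (0 of 27 higher, against 4.56%), with a median of -0.61. That count was 9 with all 24 arrays and 2 when only the arrays of these treatments were fitted, where 339 and 28 of all tested genes were lower. In 17 of the 27 genes every combination array lay below every carboplatin array, as in 18.8% of all tested genes, and in 16 every INK128 array lay below every DMSO array, as in 17.5%. In all genes the split in the combination against carboplatin was 900 lower and 422 higher, and 667 and 565 when each RNA fraction was quantile-normalized again. Against DMSO the combination gave 634 and 339, and 507 and 493 after that step. The replication genes still had 13 and 12 lower and 0 higher there.

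Each of the 13 polysome arrays was left out in turn. With INK128 against DMSO, 4 genes were then lower without DMSO polysome 3 or without INK128 polysome 2, and 5 without INK128 polysome 1 or 3. Of all 7442 genes tested, 65 and 70 were lower in the former fits, and 96 and 79 in the latter. DBF4, CDC7, GINS1 and TYMS were lower in all 13 of these fits. GINS4 passed in 11, DSCC1 in 9, and CDC6, CDC45, PCNA, DBF4B, GINS2 and GINS3 in 8. Under the same step between 12 and 18 genes were lower in the combination against carboplatin, and of the 15 only GINS2 (8 of 13 fits), MCM8 (12) and MCM6 (3) lost the call in any fit. Of all genes tested, between 474 and 1276 were lower in these fits. The combination against DMSO fell to 5 genes without DMSO polysome 3, where 138 of all 7442 genes tested were lower. Directions did not turn for any called gene.

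**Figure D1:**
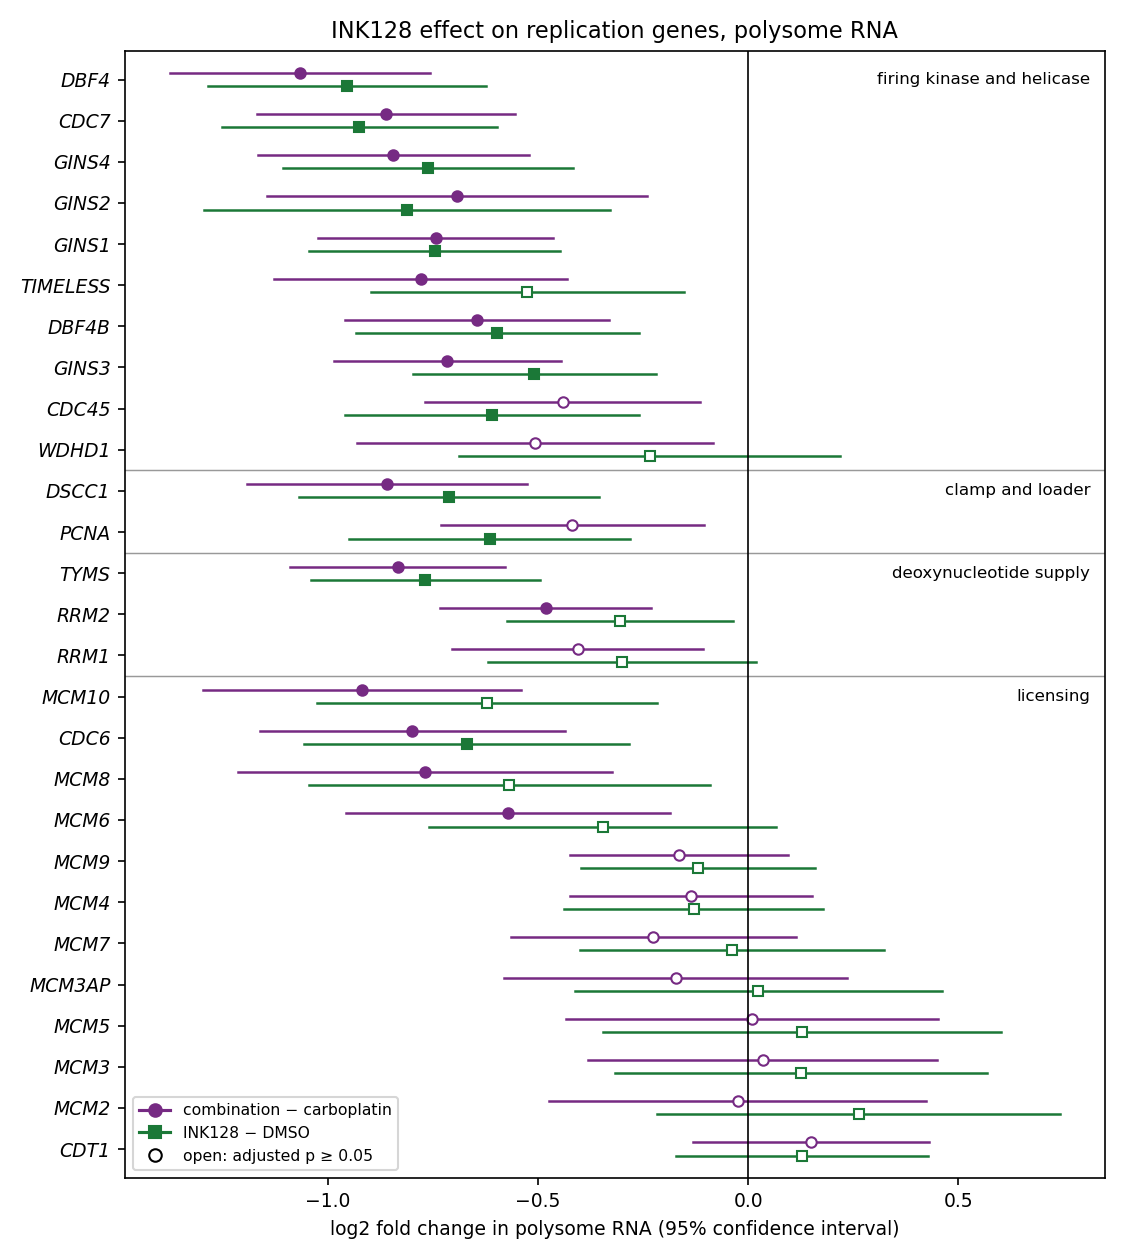
Log2 fold change in polysome RNA of the 27 tested replication genes (rows, grouped by role) in the combination against carboplatin (purple circles) and in INK128 against DMSO (green squares), with 95% confidence intervals from limma and filled symbols at an adjusted p under 0.05. DBF4 lies farthest left at -1.07 and -0.95, while MCM2, MCM3, MCM5 and CDT1 lie between -0.03 and 0.26.

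The firing step carried the most calls. Of 10 genes of the firing kinase and the helicase, 8 were lower in each comparison, where 12.1% and 3.6% of all tested genes were lower, and all 10 had a negative log2 change in both. The kinase fell in all 3 of its measured parts. DBF4 read 7.60, 7.65 and 7.43 in the combination, against 8.67, 8.32, 8.84 and 8.68 with carboplatin (here and below the last 2 are the carboplatin arrays whose labels hold an extra code), and 7.87, 7.63 and 7.80 with INK128, against 8.91, 8.46 and 8.78 with DMSO. Every INK128-treated array was below every array without it. The log2 change was -1.07 in the combination against carboplatin (SE 0.14, adjusted p = 0.000776, limma) and -0.95 with INK128 against DMSO (SE 0.15, adjusted p = 0.00261), so that the linear signal fell by 52.2% in the combination and fell by 48.4% with INK128. CDC7, the catalytic subunit, read 7.40, 7.69 and 7.10 in the combination, against 8.44, 8.25, 8.14 and 8.21 with carboplatin, and 7.32, 7.53 and 7.49 with INK128, against 8.20, 8.43 and 8.49 with DMSO. The groups again did not overlap, and the changes were -0.86 and -0.93 (adjusted p = 0.00209 and 0.00292). DBF4B, a second activating subunit, read 7.14, 6.94 and 6.68 in the combination, against 7.56, 7.60, 7.59 and 7.51 with carboplatin, and 6.98, 6.84 and 6.97 with INK128, against 7.89, 7.31 and 7.37 with DMSO. It was lower by a smaller margin, -0.65 and -0.60 (adjusted p = 0.0104 and 0.0342).

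**Figure D2:**
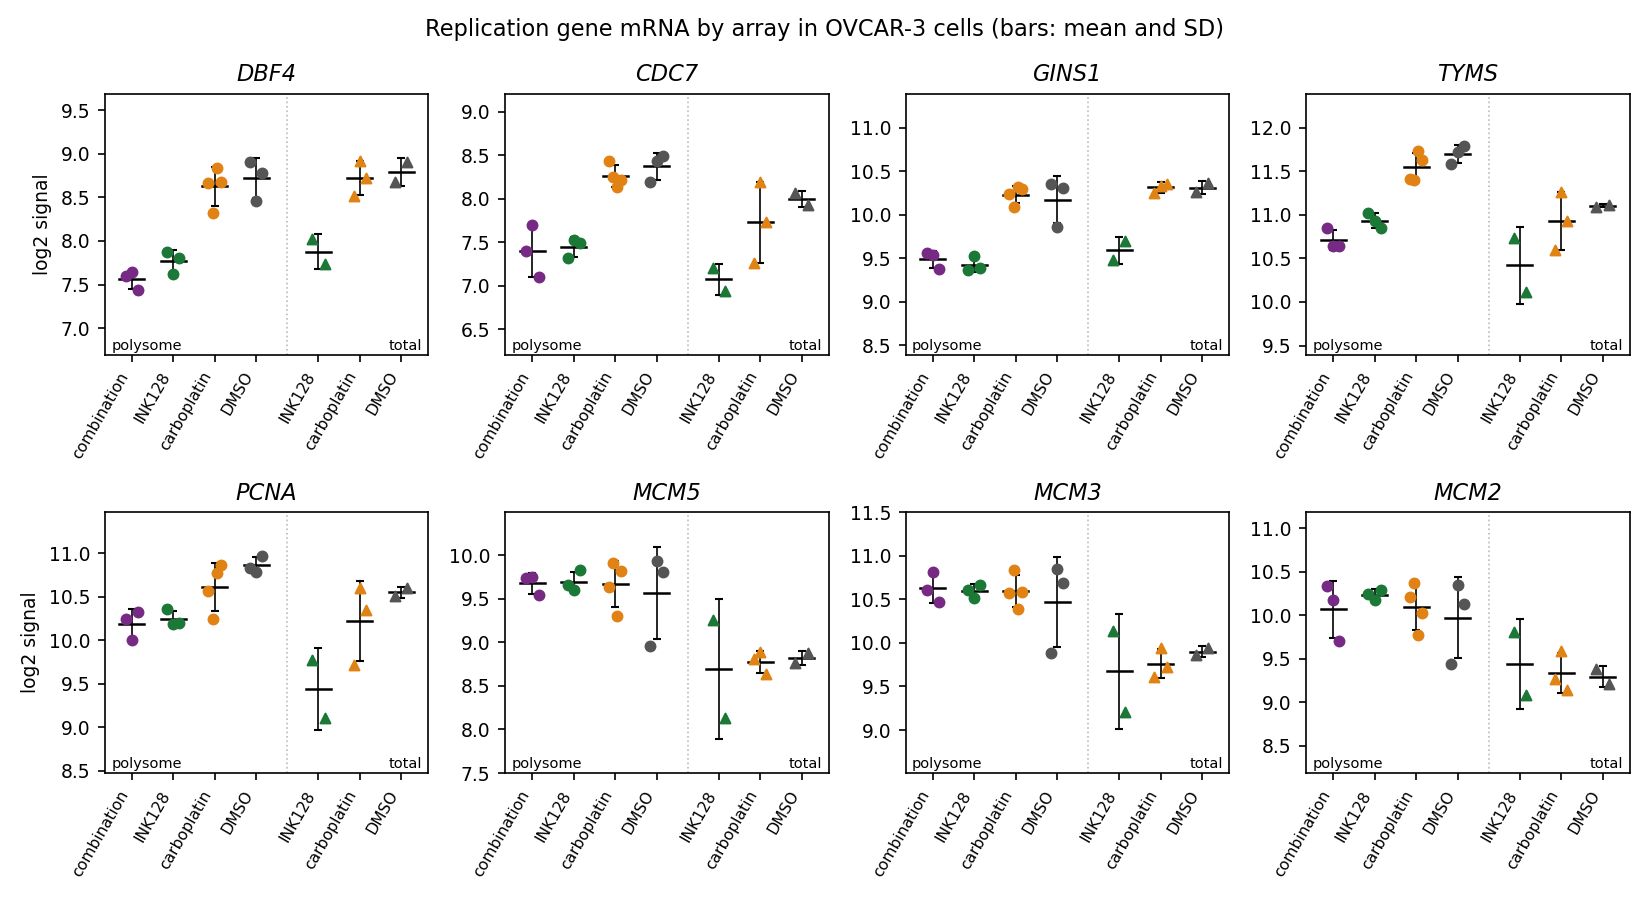
Log2 signal (y axis) of 8 replication genes on each array, with polysome RNA as circles left of the dotted line and total RNA as triangles right of it, grouped by treatment (horizontal line, group mean; bars, SD). For DBF4, CDC7, GINS1 and TYMS the polysome arrays with INK128 or the combination all lie below those with carboplatin or DMSO, and for MCM5, MCM3 and MCM2 they overlap.

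All 4 subunits of the GINS complex, which links CDC45 to the MCM ring, were lower in both comparisons and in the combination against DMSO, with changes between -0.69 and -0.84 in the combination against carboplatin and between -0.51 and -0.81 with INK128 against DMSO. GINS1 read 9.55, 9.54 and 9.37 in the combination, against 10.23, 10.09, 10.32 and 10.29 with carboplatin, and 9.37, 9.53 and 9.38 with INK128, against 10.35, 9.86 and 10.31 with DMSO. The ranges were narrow and apart, with changes of -0.74 and -0.75 (adjusted p = 0.00299 and 0.00589). GINS4 read 8.77, 8.53 and 8.20 in the combination, against 9.12, 9.21, 9.55 and 9.51 with carboplatin, and 8.82, 8.57 and 8.77 with INK128, against 9.56, 9.38 and 9.51 with DMSO, and its changes were -0.84 and -0.76 (adjusted p = 0.00328 and 0.0119). The second probeset of GINS4, at a mean of 3.89 near the bottom of the array's range, changed by -0.40 and -0.49 (adjusted p = 0.0368 and 0.0350 in fits that held it). GINS2 read 9.67, 9.36 and 9.84 in the combination, against 10.02, 10.01, 10.61 and 10.63 with carboplatin, and 9.80, 9.38 and 9.62 with INK128, against 10.70, 9.96 and 10.57 with DMSO. Its spread was wider, and the 2 coded carboplatin arrays stood above the other carboplatin arrays. They did so for several other genes, among them GINS4, TYMS and PCNA. The GINS2 changes of -0.69 and -0.81 passed with adjusted p = 0.0380 and 0.0411. Without the coded carboplatin arrays the GINS2 change in the combination was -0.39 (adjusted p = 0.251). GINS3, a further subunit, changed by -0.72 and -0.51.

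CDC45, which sits with GINS on the ring, passed in INK128 against DMSO and not in the combination against carboplatin. It read 9.43, 9.69 and 9.68 in the combination, against 10.08, 10.10, 9.95 and 10.04 with carboplatin, and 9.44, 9.41 and 9.45 with INK128, against 9.59, 10.33 and 10.21 with DMSO. No array with INK128 reached the lowest array without it in either comparison. The changes were -0.44 and -0.61 (adjusted p = 0.0588 and 0.0360). TIMELESS, a fork protection protein, read 8.83, 8.61 and 8.10 in the combination, against 9.19, 9.31, 9.34 and 9.32 with carboplatin, and 8.90, 8.79 and 8.81 with INK128, against 9.05, 9.57 and 9.46 with DMSO. It changed by -0.78 and -0.53 (adjusted p = 0.00671 and 0.0772), and combination polysome 3 was its lowest array. WDHD1, which couples the helicase to DNA polymerase alpha, changed by -0.51 and -0.23 (adjusted p = 0.0868 and 0.529). It read 9.58, 9.17 and 8.82 in the combination, against 10.09, 9.67, 9.56 and 9.48 with carboplatin, and 9.42, 9.39 and 9.47 with INK128, against 9.28, 9.93 and 9.78 with DMSO, with overlap in both comparisons.

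At the fork, the clamp PCNA and the loader subunit DSCC1 moved in the same direction, and the loader replication factor C was not analysed. DSCC1, a subunit of the alternative loader that acts in sister chromatid cohesion, read 8.68, 8.73 and 8.29 in the combination, against 9.61, 9.17, 9.37 and 9.55 with carboplatin, and 8.84, 8.69 and 8.93 with INK128, against 9.27, 9.56 and 9.77 with DMSO. It was lower in both comparisons by -0.86 and -0.71 (adjusted p = 0.00336 and 0.0196). PCNA read 10.25, 10.01 and 10.32 in the combination, against 10.56, 10.24, 10.77 and 10.87 with carboplatin, and 10.35, 10.19 and 10.20 with INK128, against 10.83, 10.78 and 10.97 with DMSO. Only carboplatin polysome 3 reached into the range of the combination. PCNA changed by -0.42 and -0.62 (adjusted p = 0.0600 and 0.0298).

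Of the 3 enzymes of deoxynucleotide supply, TYMS fell most. It read 10.85, 10.65 and 10.64 in the combination, against 11.42, 11.40, 11.74 and 11.63 with carboplatin, and 11.02, 10.93 and 10.85 with INK128, against 11.59, 11.72 and 11.79 with DMSO. The groups did not overlap, and the changes were -0.83 and -0.77 (SE 0.12 and 0.13, adjusted p = 0.000983 and 0.00297). RRM2, the regulated subunit of ribonucleotide reductase, changed by -0.48 and -0.30 (adjusted p = 0.0142 and 0.151). RRM1, its large subunit, read 10.00, 9.89 and 9.66 in the combination, against 10.37, 10.33, 10.18 and 10.14 with carboplatin, and 9.96, 9.79 and 9.91 with INK128, against 9.87, 10.43 and 10.26 with DMSO. Its changes were -0.41 and -0.30 (adjusted p = 0.0574 and 0.234).

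Among the licensing genes, 4 of 12 were lower in the combination against carboplatin and 1 of 12 with INK128 against DMSO, where 12.1% and 3.6% of all tested genes were lower, and the difference between roles was not tested. CDC6, the loader of the ring, was the gene called in both. It read 8.95, 9.04 and 8.49 in the combination, against 9.80, 9.83, 9.43 and 9.44 with carboplatin, and 8.70, 8.89 and 8.90 with INK128, against 9.21, 9.76 and 9.53 with DMSO. It changed by -0.80 and -0.67 (adjusted p = 0.00733 and 0.0366), without overlap. MCM10, grouped here by its name although it acts when the helicase is set in motion, read 8.56, 8.54 and 8.50 in the combination, against 9.72, 9.71, 9.10 and 9.27 with carboplatin, and 8.43, 8.51 and 8.69 with INK128, against 8.78, 9.40 and 9.31 with DMSO. Its changes were -0.92 and -0.62 (adjusted p = 0.00435 and 0.0571). The uncoded carboplatin arrays stood above the coded ones for MCM10 and CDC6, the opposite of GINS2. MCM8 read 9.65, 9.97 and 8.76 in the combination, against 10.11, 10.16, 10.28 and 10.36 with carboplatin, and 9.69, 9.85 and 9.81 with INK128, against 10.31, 10.31 and 10.44 with DMSO. It changed by -0.77 and -0.57 (adjusted p = 0.0229 and 0.131), and in the combination the change was -0.42 (adjusted p = 0.0462) without combination polysome 3.

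Of the 6 subunits of the MCM2-7 ring only MCM6 was lower, in the combination against carboplatin (-0.57, adjusted p = 0.0426), and that call was kept in only 3 of 13 fits with an array left out. In INK128 against DMSO the 6 changes ran between -0.35 and 0.26. MCM5 read 9.74, 9.76 and 9.54 in the combination, against 9.64, 9.91, 9.31 and 9.82 with carboplatin, and 9.66, 9.60 and 9.83 with INK128, against 8.96, 9.94 and 9.81 with DMSO. MCM3 read 10.61, 10.81 and 10.47 in the combination, against 10.58, 10.84, 10.39 and 10.59 with carboplatin, and 10.61, 10.52 and 10.67 with INK128, against 9.88, 10.85 and 10.68 with DMSO. In both genes DMSO polysome 1 stood far below the other DMSO arrays. MCM2 showed the same low array, with 10.33, 10.18 and 9.70 in the combination, against 10.21, 10.37, 9.77 and 10.02 with carboplatin, and 10.24, 10.17 and 10.29 with INK128, against 9.44, 10.34 and 10.13 with DMSO. MCM7 read 11.24, 10.92 and 10.77 in the combination, against 11.16, 11.23, 11.14 and 11.28 with carboplatin, and 11.23, 11.13 and 11.24 with INK128, against 10.82, 11.52 and 11.38 with DMSO. In all 4 genes the groups overlapped in both comparisons.

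For the combination against carboplatin the 95% interval was -0.43 to 0.45 for MCM5, -0.38 to 0.45 for MCM3, -0.47 to 0.42 for MCM2 and -0.56 to 0.11 for MCM7, which leaves out a fall of the size seen in DBF4. Smaller falls are not left out. The change of RRM2 (-0.48, called) lies within the interval of MCM7, and that of PCNA (-0.42, not called) within those of MCM2, MCM5 and MCM7. With INK128 against DMSO, MCM2, MCM3, MCM5 and MCM7 changed by 0.26, 0.13, 0.13 and -0.04 over all arrays, and by -0.00, -0.17, -0.18 and -0.25 without DMSO polysome 1. MCM4 changed by -0.14 and -0.13, and CDT1 by 0.15 and 0.13, none past the test. MCM9 had -0.16 and -0.12, and MCM3AP -0.17 and 0.02. MCM3AP-AS1 read 6.20, 6.14 and 6.26 in the combination, against 6.73, 6.31, 6.48 and 6.25 with carboplatin, and 6.04, 5.90 and 6.26 with INK128, against 6.70, 5.68 and 6.26 with DMSO.

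**Figure D3:**
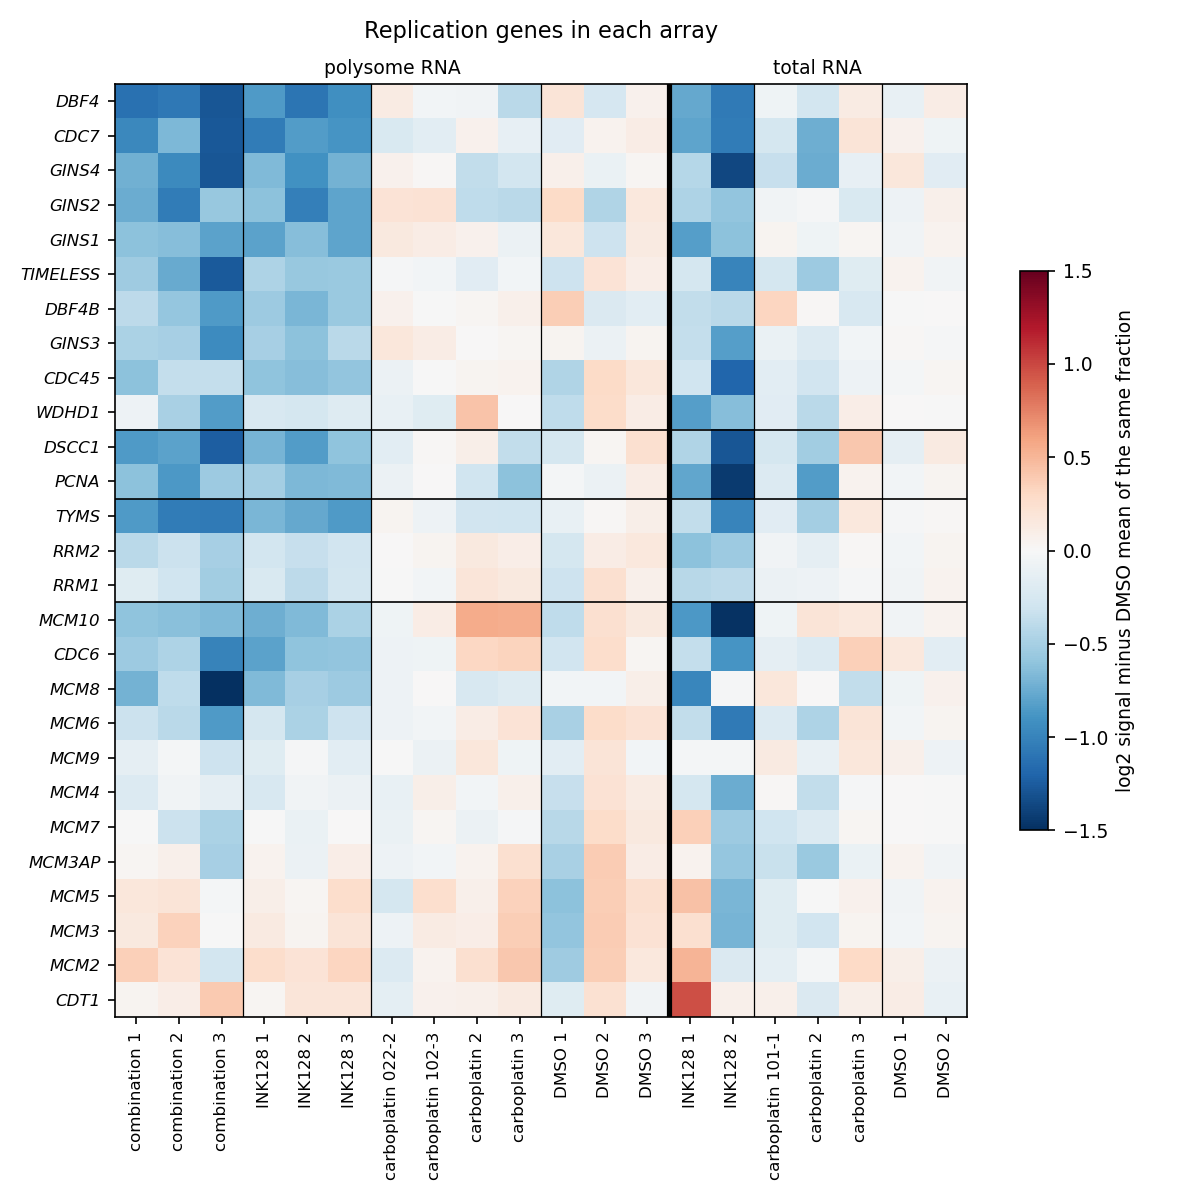
Log2 signal of each tested replication gene (rows, in 4 blocks from the top: firing kinase and helicase, clamp and loader, deoxynucleotide supply, licensing) on each of the 20 arrays (columns), minus the DMSO mean of the same RNA fraction, with blue below and red above it. The polysome columns of INK128 and the combination are mostly blue in the upper 3 blocks and white or pale for MCM2, MCM3, MCM5 and CDT1, INK128 total 2 holds the darkest total RNA cells, and DMSO polysome 1 is blue for the MCM genes.

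Total RNA was compared to ask whether the mRNAs themselves were lower. With INK128 against DMSO none of the 27 genes passed an adjusted p of 0.05 in total RNA, where 0.0941% of all tested genes were lower (7 genes) and 0.121% higher (9 genes). At an unadjusted p under 0.05, 18 of the 27 were lower and none higher, and 9.66% of all tested genes were lower. In 19 of the 27 both INK128 arrays lay below both DMSO arrays, as in 29.2% of all tested genes. The median was -0.59 for the replication genes and -0.04 for all tested genes. MCM10 had the largest change, -1.18 (SE 0.23, adjusted p = 0.0698), with 7.97 and 7.35 on the INK128 arrays, against 8.78 and 8.88 on the DMSO arrays. PCNA followed with -1.11 (SE 0.30, adjusted p = 0.131), and with 9.77 and 9.11, against 10.51 and 10.60. The lower value of each INK128 pair is replicate 2, and without that array the median of the replication genes was -0.37 and that of all genes 0.03. On 2 arrays against 2 the precision is low, and the median SD of the replication genes within INK128 total RNA was 0.44, against 0.07 within DMSO total RNA.

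The changes in polysome and in total RNA were set side by side for the 8 genes with the steepest fall on polysomes with INK128 against DMSO. DBF4 changed by -0.95 on polysomes and by -0.91 in total RNA, CDC7 by -0.93 and -0.92, GINS1 by -0.75 and -0.72, TYMS by -0.77 and -0.68, and CDC6 by -0.67 and -0.62. For GINS2 the change was larger on polysomes, -0.81 against -0.53 in total RNA, and for GINS4 and DSCC1 smaller, -0.76 against -0.90 and -0.71 against -0.87. In total RNA DBF4 read 8.02 and 7.74 with INK128, against 8.68 and 8.91 with DMSO, and CDC7 read 7.20 and 6.94, against 8.06 and 7.93. The translation efficiency change, the polysome change minus the total RNA change, was -0.04 for DBF4 (95% interval -0.56 to 0.48), -0.00 for CDC7 (-0.63 to 0.62), -0.03 for GINS1 (-0.47 to 0.41) and -0.08 for TYMS (-0.64 to 0.48). No replication gene passed in translation efficiency with INK128 against DMSO, nor did any of all tested genes, and at an unadjusted p under 0.05 there were 92 of all genes (1.24%) and none of the 27. The median change was 0.10 for the replication genes and 0.03 for all genes. It was 0.41 without INK128 total 1 and -0.15 without INK128 total 2. The largest positive changes were those of MCM10 (0.55), WDHD1 (0.50) and PCNA (0.49), genes with a larger fall in total than in polysome RNA, and the lowest was that of CDT1 (-0.39). The intervals are wide, and the 0.55 of MCM10 had an interval of -0.08 to 1.19.

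Across treatments, most replication mRNAs were enriched on heavy polysomes relative to other genes. In polysome minus total RNA, averaged over INK128, carboplatin and DMSO, 17 of 27 were higher and 0 lower, where 33.1% of all tested genes were higher and 15.9% lower. The median was 0.44, against 0.11 for all tested genes. All 6 ring subunits were among the 17, with differences between 0.44 and 0.88. MCM5 had the largest at 0.88 (SE 0.15, adjusted p = 0.000187), followed by CDC45 at 0.81 (SE 0.12, adjusted p = 5.35e-05), MCM3 at 0.78, MCM2 at 0.74 and MCM7 at 0.70. In DMSO, for example, CDC45 read 9.59, 10.33 and 10.21 on polysomes, against 9.31 and 9.38 in total RNA. The genes with the steepest fall after INK128 were not all enriched. CDC7 and TYMS were (0.43 and 0.57), while DBF4 had -0.09 and GINS1 -0.13, neither past the test. Between 17 and 20 genes were higher with any array left out, and 1 was lower without carboplatin total 3, DMSO polysome 1 or INK128 total 1. Of all genes tested, between 1955 and 2620 were then higher and between 978 and 1401 lower.

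**Figure D4:**
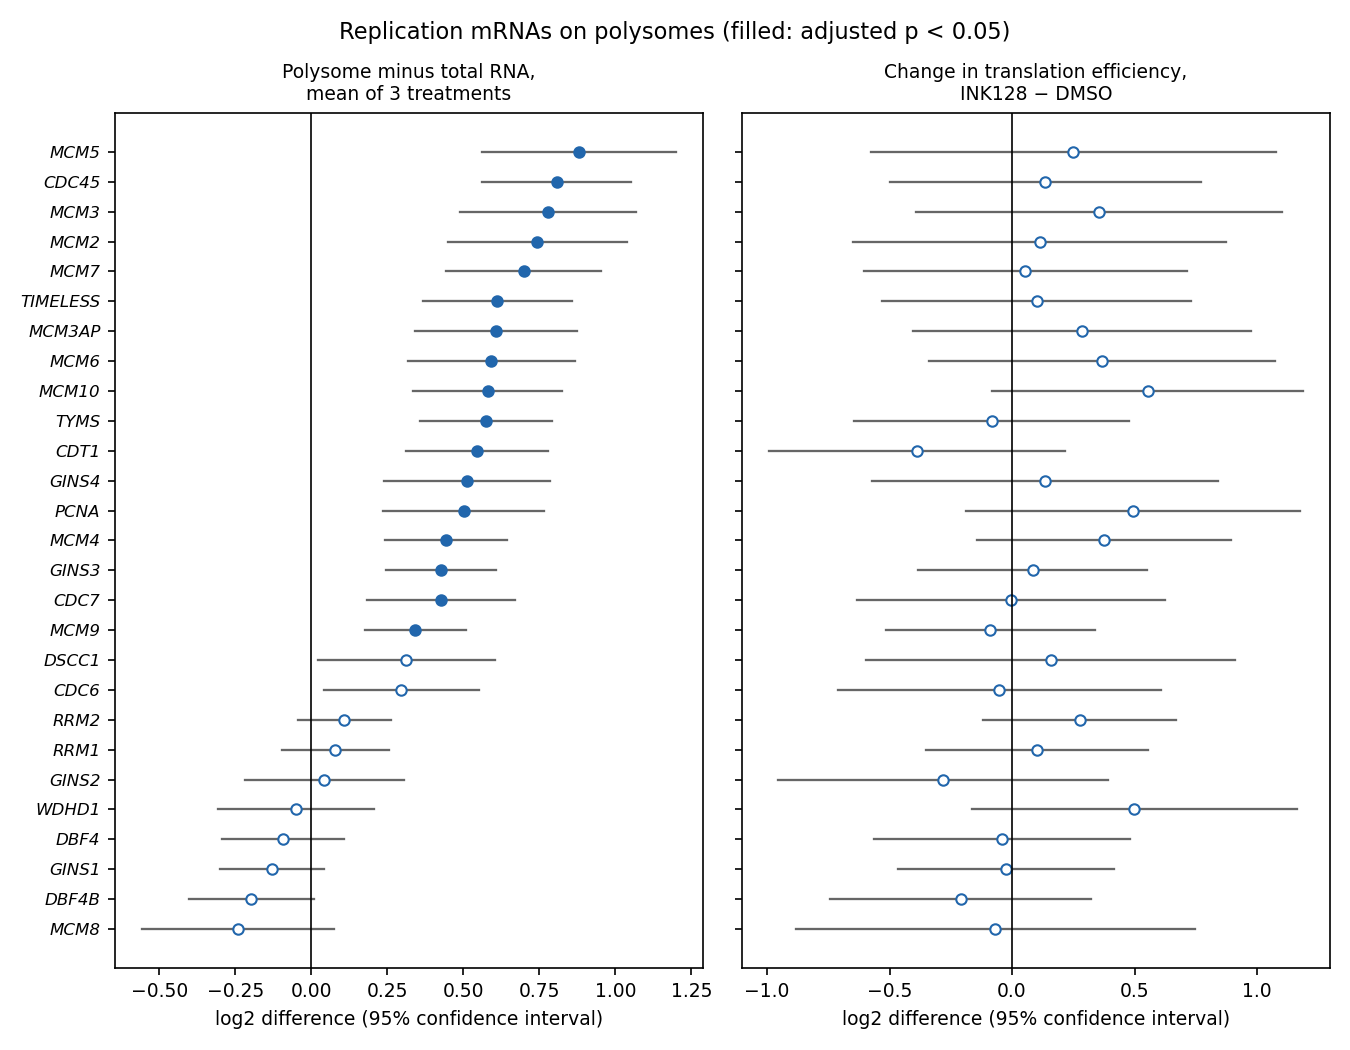
Log2 difference between polysome and total RNA over 3 treatments (left) and log2 change in translation efficiency with INK128 against DMSO (right) for the 27 tested replication genes, with 95% confidence intervals from limma and filled circles at an adjusted p under 0.05. On the left 17 genes are filled, from MCM9 at 0.34 to MCM5 at 0.88, and on the right none is.

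With carboplatin alone no replication gene passed the test. On polysomes, carboplatin against DMSO gave 0 calls among the 27 genes and 0 among all genes (2.36% of all and none of the 27 at an unadjusted p under 0.05), with a median of 0.03 and changes between -0.25 for PCNA and 0.29 for MCM10. In total RNA it also gave 0, with a median of -0.12 against -0.07 for all genes and with 2.67% of all and none of the 27 at an unadjusted p under 0.05. Added to INK128, in the combination against INK128, carboplatin again gave 0 calls (2.75% of all genes and none of the 27 at an unadjusted p under 0.05) and a median of -0.05. DBF4 changed by -0.09 with carboplatin alone (95% interval -0.40 to 0.22) and by -0.21 when carboplatin was added to INK128 (-0.54 to 0.13). Translation efficiency with carboplatin against DMSO gave 0 calls too (0.779% of all genes and none of the 27 at an unadjusted p under 0.05), with a median of 0.12, against 0.08 for all genes. The absence of calls over all genes depended on the coded carboplatin arrays. Without them, carboplatin against DMSO on polysomes gave 55 lower and 180 higher over all genes, and none of the 27.

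Other genes of the same pathway were followed through lists. Of 17 tested genes of the fork and of origin firing, 6 were lower in the combination against carboplatin and 5 with INK128 against DMSO, with none higher, where 12.1% and 3.6% of all tested genes were lower. The same shares of all genes apply to the lists that follow. TIPIN, the partner of TIMELESS, changed by -1.43 and -0.90, the nuclease and helicase DNA2 by -0.83 and -0.85, the checkpoint mediator CLSPN by -0.83 and -0.70, and the flap endonuclease FEN1 by -1.30 (adjusted p = 0.00203) and -0.58 (adjusted p = 0.135). The median of this list was -0.41 and -0.29. Of 16 other genes of nucleotide supply, 5 and 3 were lower and none higher, among them CTP synthase CTPS1 (-1.03 and -0.89) and thymidylate kinase DTYMK (-0.78 and -0.88), the enzyme that follows TYMS in the same route. The median was -0.30 and -0.16. Of 19 regulators of the G1/S transition, 10 and 8 were lower and none higher, with medians of -0.42 and -0.45. The phosphatase CDC25A changed by -1.34 and -1.18 (adjusted p = 1.07e-05 and 0.000119), the cyclins CCNE1 by -0.64 and -0.59 and CCNE2 by -0.67 and -0.74, and the transcription factor E2F1 by -0.57 and -0.81. In total RNA none of the genes in these lists passed with INK128 against DMSO, and their medians there were -0.59 for the fork list, -0.15 for nucleotide supply and -0.49 for G1/S. As with the replication genes, the share of cells in each phase of the cycle was not measured on these arrays, and its part in the result was not tested.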

How the data were processed

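RNA from whole lysates and from heavy polysomes of OVCAR-3 cells was hybridised to Affymetrix Human Gene 2.0 ST arrays. The deposited values are log2 signals, which the authors made with Affymetrix Expression Console 1.4.1 by RMA (background correction, quantile normalization and summary per probeset). The table holds no read counts, so depth is not a property of these values and the number of arrays limits the precision. Array columns of no sample, or of another series, numbered 0. Groups and replicate numbers were taken from the labels.

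Probesets were named through the platform annotation, and each gene was represented by its probeset of highest mean. The filter kept the 7442 genes whose mean log2 signal reached 6.54 (the middle value over genes with a symbol). The polysome arrays and the total RNA arrays were fitted separately, and translation efficiency and polysome minus total RNA in a fit of both, with lmFit and eBayes in limma 3.58.1 (R 4.3.3), and all adjusted p-values in the text are limma's with Benjamini-Hochberg adjustment over all genes tested. A change was called at an adjusted p under 0.05. Intervals are 95% confidence intervals of the fit. The fits were tested on simulated data with independent normal noise for each gene and array, which hold no correlation between arrays. The members, the gene lists and the tests were chosen with earlier results of these data known. Values on every array are given for at most 12 genes with the largest mean change among those called, for the extremes of each role and for the genes most enriched on polysomes, and other genes are given by their change. MCM3AP-AS1, outside this rule, was added after its values were seen.

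Alternatives were all 24 arrays, other filters on low signal, quantile normalization within each fraction, centred arrays, fits of the compared treatments alone, weights for arrays, the replicate block, the coded carboplatin arrays left out, all probesets tested and each array left out in turn. Of 21 same-numbered pairs of polysome arrays from different groups, 13 had deviations that correlated above 0.1 (range -0.70 to 0.44, median 0.11). The same held for 10 of 42 pairs with different numbers (range -0.45 to 0.69, median -0.08), which include the highest correlation. The 3 pairs of INK128 and DMSO arrays were all above 0.1 (0.36, 0.30 and 0.16), while those with a coded carboplatin array reached -0.70. The main fits hold no block, and the fit with it is given among the alternatives. Promoters came from RefSeq (GRCh38.p14) and were searched for 4 words over 250 bases before and 50 after the start. Figures were drawn with matplotlib 3.10.9.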

Additional observations from a re-analysis of the deposited data

How the results depend on the processing

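With INK128 against DMSO on polysomes, 12 replication genes were lower, 4 when all 24 arrays were used by their labels and 21 (with 1 higher) with array weights, whose estimation did not converge. With an array left out the count ran between 4 and 14, and between 65 and 493 over all genes tested. The combination against DMSO had 15 lower, 9 with all 24 arrays, 2 with only the treatments compared, 1 was higher with array weights, and between 5 and 17 were lower with an array left out. Over all genes tested, between 138 and 965 were lower in the fits with an array left out. The count of 15 in the combination against carboplatin ran between 10 and 18 over the alternatives, and between 474 and 1668 over all genes tested. Array weights called 3 genes lower with carboplatin against DMSO on polysomes. Centring the arrays called 1 lower with INK128 against DMSO in total RNA, and 1 lower in polysome minus total RNA, as did array weights there, and leaving out an array called between 0 and 1. The median change in translation efficiency ran between -0.15 and 0.41 with an array left out. In the total RNA comparison, leaving out a DMSO or INK128 array leaves 1 sample in an arm, which is assumed to vary like the others. The cause of these shifts was not tested, except that fewer arrays enter the fits with an array left out or with only the treatments compared. No called change turned its direction. Among changes that were not called, the sign turned for the medians of translation efficiency with INK128 (above) and with carboplatin (0.12, lowest -0.03 with an array left out). It also turned for the medians of carboplatin against DMSO on polysomes (0.03, lowest -0.14), of the combination against INK128 (-0.05, highest 0.01) and of the interaction (-0.11, highest 0.05 over the other alternatives). For single genes with INK128 against DMSO on polysomes, MCM3 and MCM5 turned (0.13 each, and -0.17 and -0.18 without DMSO polysome 1). MCM2 (0.26, lowest -0.00), MCM3AP (0.02, lowest -0.22) and MCM7 (-0.04, highest 0.10) turned there too with an array left out. In the combination against carboplatin and against DMSO the sign turned for MCM2, MCM3, MCM3AP and MCM5. In total RNA with INK128 against DMSO it turned for MCM2, MCM3, MCM3AP, MCM5, MCM7 and MCM9.

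With a replicate block, 12, 14 and 15 genes were lower with INK128 against DMSO, in the combination against carboplatin and in the combination against DMSO, and 17 were higher in polysome minus total RNA. The block changed 1 call in these, MCM6. Over all genes tested, it gave 344, 1290 and 800 lower in the same order, and 2355 higher in polysome minus total RNA.

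Over all genes, INK128 against DMSO on polysomes gave 268 lower and 344 higher, 103 and 198 with all 24 arrays, and 2695 and 2291 with array weights. The combination against carboplatin gave 513 and 235 with only the treatments compared, and 1668 and 1113 with weights. The combination against DMSO gave 339 and 215 with all 24 arrays, 28 and 31 with only the treatments compared, and 2654 and 2114 with weights. INK128 against DMSO in total RNA gave 0 and 0 with all 24 arrays, with only the treatments compared, with the replicate block and with all probesets, 14 and 20 with quantile normalization within each fraction, and 20 and 17 with centred arrays. Without the coded arrays, carboplatin against DMSO gave 55 and 180 on polysomes and 8 and 3 in total RNA, and the interaction 34 and 6. With weights, carboplatin against DMSO on polysomes gave 260 and 404, the combination against INK128 16 and 7, and translation efficiency with carboplatin 2 and 0.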

Other observations

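Other lists of the cell cycle were read against the shares of all tested genes that were lower, 12.1% in the combination against carboplatin and 3.6% with INK128 against DMSO. Of 22 mitotic genes, 9 were lower in the combination against carboplatin and 5 with INK128 against DMSO, with medians of -0.37 and -0.40 and none higher. BIRC5, the survivin gene, changed by -0.83 and -0.98, the transcription factor MYBL2 by -0.87 and -0.80, and the mitotic kinase AURKA by -0.63 and -0.58. Of 9 histone and chromatin genes, 3 were lower in the combination against carboplatin, the histone chaperones ASF1B (-0.97) and NASP (-0.55) and the MYC target CDCA7 (-0.76), and none with INK128 against DMSO. Of 12 genes on a list linked to ubiquitin, not all of which act on licensing, 2 were lower in the combination against carboplatin, a share near that of all genes. They were FBXO5 (-0.95), an inhibitor of the anaphase-promoting complex, and the deubiquitinase USP1 (-0.73). With INK128 against DMSO none was lower and WDR48, a partner of USP1, was higher (0.53), where 4.62% of all tested genes were higher. In total RNA none of these genes passed with INK128 against DMSO, with medians of -0.50, -0.37 and -0.31 for the mitotic, chromatin and ubiquitin lists. In limma's fit MYC, a transcription factor that drives entry into S phase, was higher in the combination against DMSO by 0.74. In that comparison 4.56% of all tested genes were higher. MYC was not called in the combination against carboplatin (0.50, adjusted p = 0.102, limma) or with INK128 against DMSO (0.66, adjusted p = 0.0747).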
